A study of Mus musculus with 6 samples.

Results

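The endothelial and mural cell miRNAs of the mouse prefrontal cortex were described through 5 mature miRNAs. They were chosen by name, as both arms of the endothelial miR-126a (mmu-miR-126a-3p and mmu-miR-126a-5p) and 3 mature miRNAs of the smooth muscle and pericyte cluster (mmu-miR-143-3p, mmu-miR-145a-5p and mmu-miR-145a-3p). They are 5 of the 1189 entries measured in each library, 2 of them endothelial and 3 mural. All 5 had reads in every library, so no filter removed a member.

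The mice were male wild type C57BL/6 animals. Their recorded age was 18 months, while the sample names carry 17. The PND group, named for postoperative neurocognitive disorder, breathed 1.5% isoflurane for 30 min and then had the abdomen opened and explored for 30 min under the same anesthetic, with lidocaine cream and povidone iodine put on the wound. The CON group received neither anesthesia nor operation before testing, so the effects of isoflurane, laparotomy and wound care cannot be told apart. On the day before the operation, mice of both groups were trained with tones and foot shocks. The day after it they were tested in an open field and for fear memory. Within the week after the operation they went through the Barnes maze, a test of spatial memory. They were then deeply anesthetized with isoflurane and perfused with saline before the cortex was removed. Of 13 mice per group, 3 were sequenced, with 1 library per mouse.

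Endothelial cells line the vessels, and mural cells (smooth muscle cells and pericytes) wrap around them. miR-126 is made from an intron of Egfl7, a gene of endothelial cells, and is known for supporting growth factor signalling and vessel integrity. miR-143 and miR-145 are cut from a shared primary transcript and are known for maintaining the contractile state of vascular smooth muscle. Each hairpin gives a 5p and a 3p arm, and usually one of them is loaded into Argonaute and persists while the other is degraded.

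In the mouse genome build GRCm38, Mir126a lies on the plus strand of chromosome 2 from 26591357 to 26591429, inside Egfl7, which is read from the same strand. That position was intronic in 8 of the 9 Egfl7 transcripts that span it in the GENCODE M21 annotation and overlapped an exon in 1. Mir126b lies on the opposite strand at the same place, from 26591363 to 26591420, and its products were not among the entries measured. The sequences of miR-126a-3p and its hairpin are shown because miR-126a-3p held most of the vascular reads. Both were taken from RefSeq (GRCm38.p6). In the mature sequence the capitals mark the seed (bases 2 to 8), which pairs with target mRNAs, and in the hairpin they mark miR-126a-3p (bases 46 to 67).
miR-126a-3p: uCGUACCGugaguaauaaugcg
Mir126a hairpin: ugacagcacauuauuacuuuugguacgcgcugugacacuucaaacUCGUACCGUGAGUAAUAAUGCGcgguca
No other of the 1679 mature miRNA names in that table has the seed of miR-126a-3p.

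The libraries held 14849461 to 19471226 miRNA reads. Values are in CPM, the number of reads of a miRNA per 1000000 reads of its library. The neuronal miR-128-3p alone took 17.6 to 29.2% of the reads, with the highest share in CON mouse 2 and the lowest in PND mouse 3. The library of CON mouse 1 stood apart, since 8 miRNAs of epithelial and olfactory tissue summed to 1646 CPM there and to 67.0 to 198 CPM in the other 5. Differences between the groups are therefore also given without CON mouse 1 for the members, their sums by compartment and the ratios between them.

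The vascular miRNAs were a visible part of the bulk tissue. Together the 5 members took 2.21, 2.30 and 2.39% of the library in PND mice 1 to 3, against 1.91, 1.91 and 2.41% in CON mice 1 to 3, so that CON mouse 3 exceeded every PND mouse. miR-126a-3p made up 56.1 to 62.8% of these reads and miR-143-3p 33.9 to 40.3%, while the other 3 members together made up 2.44 to 3.64%. In order of mean level, miR-126a-3p was the 16th most abundant of the 1189 entries, miR-143-3p the 22nd, miR-126a-5p the 111th, miR-145a-5p the 149th and miR-145a-3p the 243rd. This order held within each of the 6 libraries. Across libraries the ranges of neighbours stayed apart except for miR-126a-5p, whose lowest value (254.7 CPM) was below the highest of miR-145a-5p (263.9 CPM). These libraries are of whole tissue, in which fewer cells of a type and less of its RNA per cell cannot be told apart.

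**Figure D1:**
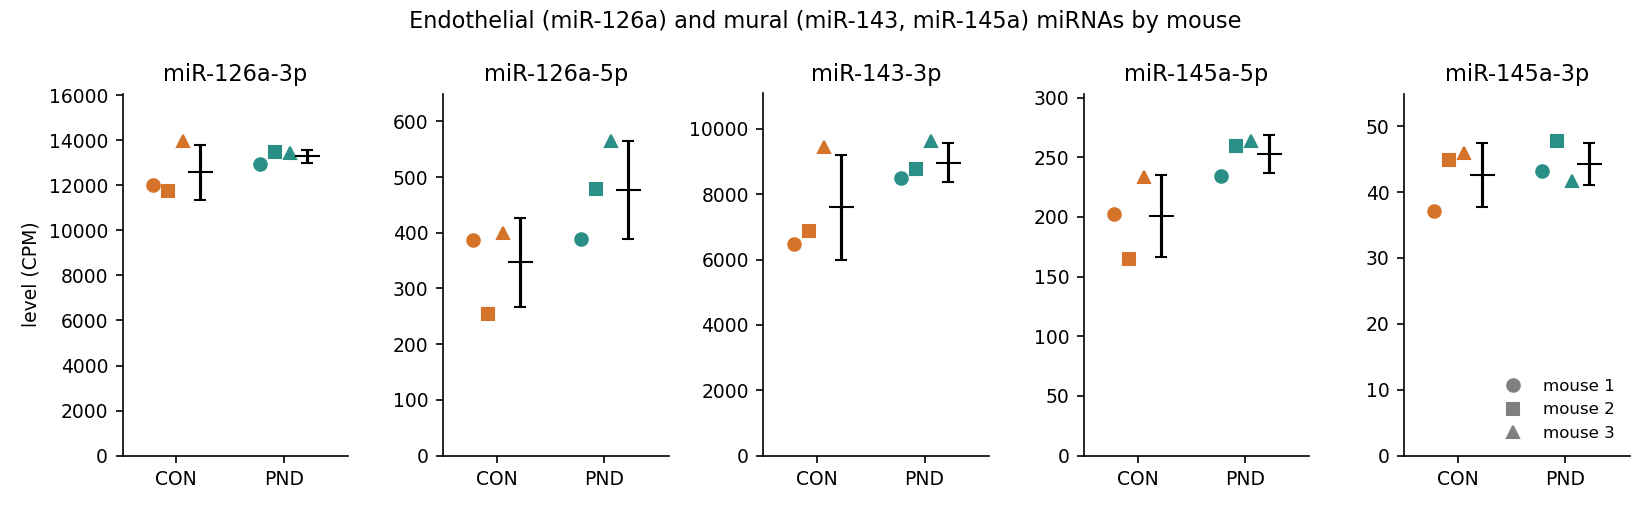
Level of each endothelial and mural miRNA in CPM by group, with a linear axis from 0 in each panel, where each symbol is 1 mouse and the bar gives the mean ± SD (n = 3). The groups overlap for every miRNA except miR-145a-5p, whose lowest PND value (234.4 CPM) and highest CON value (233.9 CPM) nearly touch.

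miR-126a-3p, the major arm of the endothelial hairpin, had the smallest coefficient of variation of the members. It stood at 12937, 13478 and 13427 CPM in PND mice 1 to 3 and at 12006, 11737 and 13973 CPM in CON mice 1 to 3. The highest and the lowest mouse were both CON, and the groups overlapped. The means were 13281 ± 299 CPM in PND and 12572 ± 1221 CPM in CON (SD, n = 3 each), a log2 fold change of 0.08 (SE 0.09), which did not pass limma's test (Benjamini-Hochberg adjusted p = 0.768). The 95% interval of the fold ran from 0.912 to 1.23, and the log2 fold change was 0.05 without CON mouse 1. With 174282 to 251903 reads per library its mean counting error was 0.214%, against a coefficient of variation over the 6 mice of 6.84%, so counting error was a small part of the spread.

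miR-126a-5p, the less abundant arm, varied most. It had 388.6, 477.8 and 565.1 CPM in PND mice 1 to 3 and 386.4, 254.7 and 399.1 CPM in CON mice 1 to 3. PND mouse 3 was the highest and CON mouse 2 the lowest, with PND mouse 1 inside the CON range. The means were 477 ± 88.3 and 347 ± 80.0 CPM (SD, n = 3 each). The log2 fold change of 0.47 (SE 0.21) was the largest among the members and did not pass limma's test (Benjamini-Hochberg adjusted p = 0.768), and the exact permutation test gave p = 0.2. It was 0.56 without CON mouse 1, 0.26 without CON mouse 2 and 0.32 with DESeq2 size factors. The 95% interval of the fold was 0.991 to 1.94. Its coefficient of variation over mice was 25.2%, with a counting error of 1.19%.

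Among the mural miRNAs, miR-143-3p was the most abundant. In GRCm38 its gene, Mir143 (chromosome 18, 61649196 to 61649258), lies on the minus strand 1301 bases from Mir145a (61647825 to 61647894), and both fall inside the RefSeq long noncoding RNA gene Carmn. PND mice 1 to 3 had 8493, 8763 and 9634 CPM and CON mice 1 to 3 had 6487, 6870 and 9436 CPM. CON mouse 3 lay among the PND mice and the other two CON mice lay below them. The means of 8963 ± 597 and 7597 ± 1604 CPM (SD, n = 3 each) gave a log2 fold change of 0.26 (SE 0.15) that did not pass limma's test (Benjamini-Hochberg adjusted p = 0.768). The 95% interval of the fold was 0.942 to 1.51, and the exact permutation test gave p = 0.3. The log2 fold change was 0.42 when CON mouse 3 was left out and 0.15 when CON mouse 1 was, and neither passed limma's test.

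miR-145a-5p, the abundant arm of the neighbouring hairpin, had 234.4, 259.6 and 263.9 CPM in PND mice 1 to 3 and 202.7, 165.1 and 233.9 CPM in CON mice 1 to 3. Every PND mouse lay above every CON mouse, but PND mouse 1 and CON mouse 3 were separated by less than counting error, since their 95% exact Poisson intervals were 227.7 to 241.3 and 226.5 to 241.5 CPM. The means were 253 ± 15.9 and 201 ± 34.4 CPM (SD, n = 3 each). The log2 fold change was 0.34 (SE 0.15). The unadjusted limma p was 0.0489 and the Benjamini-Hochberg adjusted p 0.768, so it did not pass. The exact permutation test gave p = 0.1, the smallest that 3 mice against 3 allow. The 95% interval of the fold was 1.001 to 1.61, and the log2 fold change was 0.36 without CON mouse 1 and 0.21 without CON mouse 2. After scaling by TMM factors or DESeq2 size factors the groups overlapped, and with the total without miR-128-3p they did not.

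The minor arm miR-145a-3p had 43.24, 47.78 and 41.67 CPM in PND mice 1 to 3 and 37.05, 44.92 and 45.92 CPM in CON mice 1 to 3, and the groups overlapped. The means were 44.2 ± 3.18 and 42.6 ± 4.86 CPM (SD, n = 3 each), and the log2 fold change of 0.06 (SE 0.14) did not pass limma's test (Benjamini-Hochberg adjusted p = 0.942). The 95% interval of the fold was 0.831 to 1.30. With 566 to 842 reads its counting error was 3.7%, beside a coefficient of variation of 8.69%. The other arm of Mir143, miR-143-5p, is no member. It had 10.2, 11.2 and 12.3 CPM in PND and 9.23, 5.05 and 9.32 CPM in CON, from 75 to 218 reads, without overlap, and a log2 fold change of 0.50 (SE 0.23, limma adjusted p = 0.768).

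Read as a group, 0 of the 5 members had an adjusted p under 0.05 in limma, where 0.421% of all 1189 entries did. At an unadjusted p under 0.05 there was 1 of 5, miR-145a-5p, which was higher in PND, beside 5.13% of all entries in either direction and 4.04% higher in PND. Of the 361 entries with a mean of 10 CPM or more, 2.49% had such a p. The count at an adjusted p under 0.05 was also 0 with limma-voom, edgeR's quasi-likelihood test and DESeq2. The limits used in the study are an unadjusted p under 0.05 with an absolute log2 fold change above 1. Applied to the limma fit used here, they were met by 0 of 5 members and by 0.0841% of all entries. The paper names edgeR and limma, took its fold change from TPM values and reported more miRNAs at these limits, so this share is not its count. In 1 of 5 members every PND mouse lay above every CON mouse, while 7.91% of all entries and 8.59% of those 361 did so. In 0 of 5 every CON mouse lay above every PND mouse, against 2.02% of all entries and 0.277% of the 361. All 5 members had a log2 fold change above 0, as did 65.3% of all entries and 79.2% of those 361.

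The direction depended on the scaling of the libraries. The median log2 fold change of the 361 entries was 0.14 when values were scaled to the library total, and it was lower by 0.12 with TMM factors, by 0.15 with DESeq2 size factors and by 0.08 when miR-128-3p was left out of the total. Under each of these 3 scalings, 3 of 5 members stayed above 0, and miR-126a-3p and miR-145a-3p lay below it, again without passing the test. Set against the median of the 361 entries, the log2 fold change of miR-126a-3p was -0.05, that of miR-145a-3p -0.08, that of miR-143-3p 0.12, that of miR-145a-5p 0.21 and that of miR-126a-5p 0.34 (library total). Among all entries with an unadjusted p under 0.05, 78.7% were higher in PND by the library total, 65.4% with TMM factors, 59.6% with DESeq2 size factors and 72.0% without miR-128-3p.

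**Figure D2:**
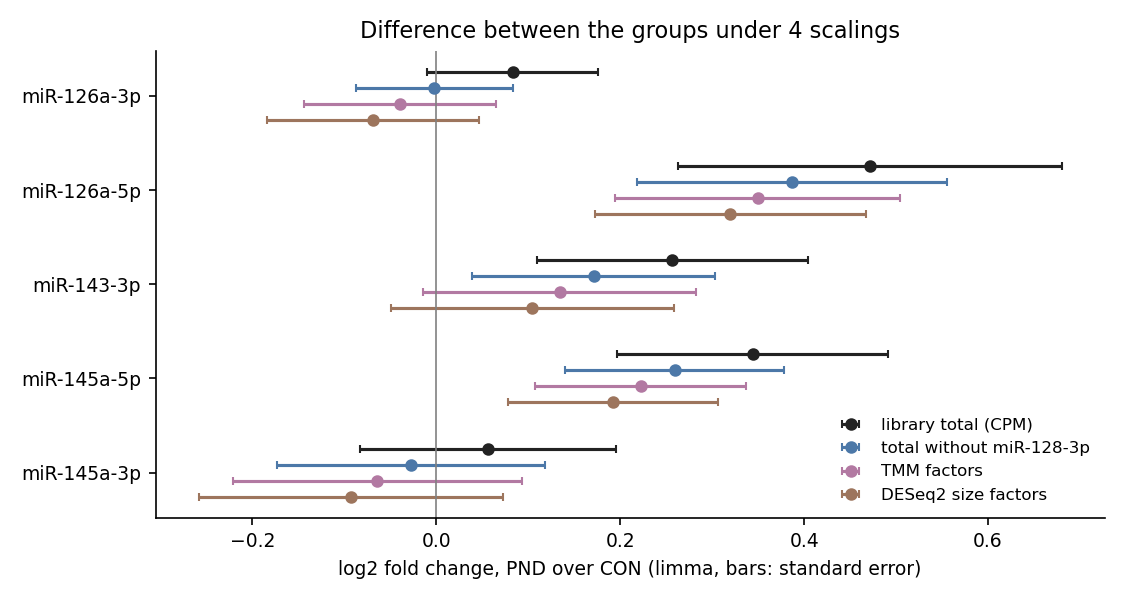
Log2 fold change (PND against CON) of each endothelial and mural miRNA under 4 scalings of the libraries (library total, total without miR-128-3p, TMM factors and DESeq2 size factors), where points are limma estimates and bars their standard errors. miR-126a-3p and miR-145a-3p lie above 0 only by the library total, while miR-126a-5p, miR-143-3p and miR-145a-5p lie above 0 in all 4.

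Summed by compartment, the endothelial miRNAs reached 13326, 13956 and 13992 CPM in PND and 12392, 11991 and 14372 CPM in CON, and the groups overlapped. The difference of the log2 means was 0.10 (exact permutation test, two-sided, p = 0.4). The mural miRNAs reached 8770, 9070 and 9940 CPM in PND and 6726, 7080 and 9716 CPM in CON, a difference of 0.26 (exact permutation p = 0.3). CON mouse 3 again lay among the PND mice. The endothelial difference was 0.07 without CON mouse 1, 0.04 without CON mouse 2 and 0.17 without CON mouse 3, and it lay below 0 with TMM factors (-0.03) and DESeq2 size factors (-0.06). The mural difference was 0.16 without CON mouse 1, 0.42 without CON mouse 3 and 0.11 with DESeq2 size factors.

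The arm ratios do not depend on the library total. miR-126a-3p stood at 33.3, 28.2 and 23.8 times miR-126a-5p in PND mice 1 to 3 and at 31.1, 46.1 and 35.01 times in CON mice 1 to 3. PND mouse 3 had the lowest and CON mouse 2 the highest ratio, and PND mouse 1 lay inside the CON range. The means were 28.4 ± 4.77 and 37.4 ± 7.78 (SD, n = 3 each), with a difference of -0.39 on the log2 scale (exact permutation test, two-sided, p = 0.2). Among the 86 hairpins with a mean of 10 CPM or more in both arms, 72.1% had a smaller ratio between the arms, 77.9% a smaller spread of it over the mice and 6.98% a lower difference between the groups. The difference was below 0 in 57.0% of the 86. Every CON mouse lay above every PND mouse in 8.14% of them and the reverse held in 1.16%, and neither held for the 2 member hairpins. The log2 difference was -0.51 without CON mouse 1 (exact permutation p = 0.2) and -0.23 without CON mouse 2 (exact permutation p = 0.4).

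For miR-145a the 5p arm was the major one, at 5.42, 5.43 and 6.33 times the 3p arm in PND mice 1 to 3 and 5.47, 3.68 and 5.09 times in CON mice 1 to 3. The means were 5.73 ± 0.523 and 4.75 ± 0.947 (SD, n = 3 each), a log2 difference of 0.29 (exact permutation p = 0.3). CON mouse 1 lay above PND mice 1 and 2, and without it the groups did not overlap (log2 difference 0.40, exact permutation p = 0.1, the smallest that 3 mice against the remaining CON mice allow). CON mouse 2 was again the outermost mouse, here with the lowest ratio, and without it the log2 difference was 0.11 (exact permutation p = 0.6). CON mouse 2 also had the highest median log2 ratio of major over minor arm across the 86 hairpins, 2.97 against 2.45 to 2.61 in the other 5 mice, whose part in the members' ratios was not tested. The 2 member hairpins thus differed from each other in that mouse. Its miR-126a ratio lay on the same side as the median of all hairpins and its miR-145a ratio on the other.

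**Figure D3:**
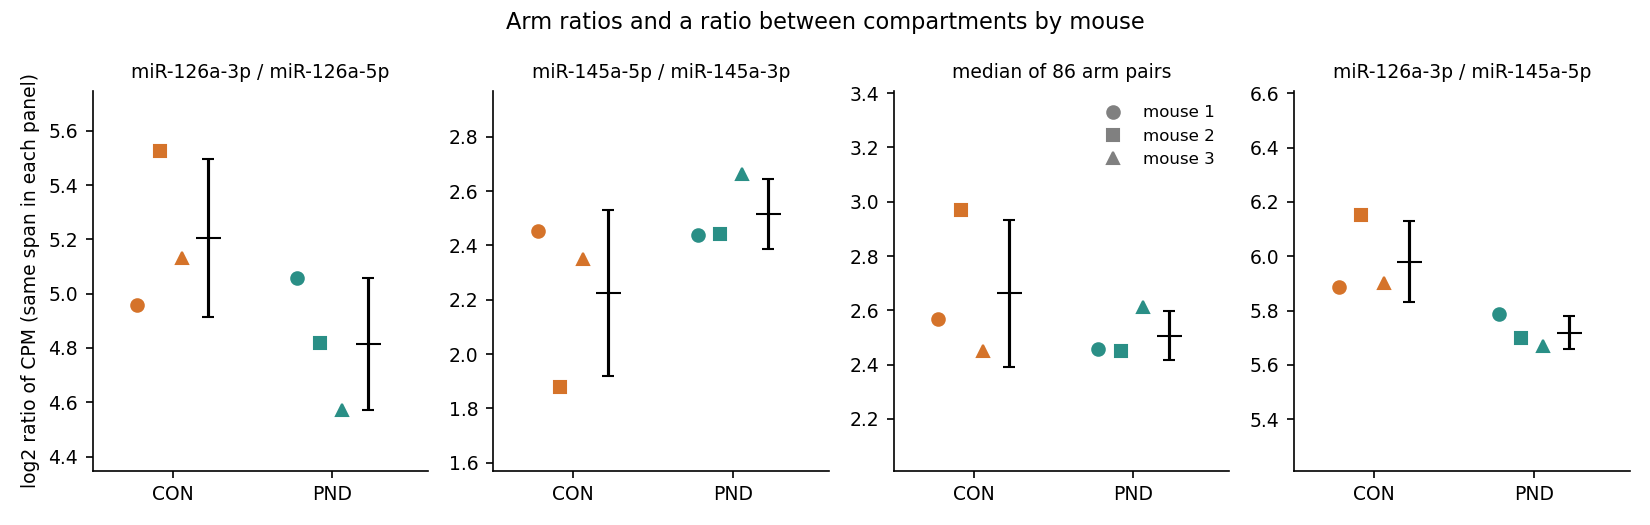
Log2 ratios of CPM by group for both arms of miR-126a, both arms of miR-145a, the median of 86 arm pairs (major over minor arm) and miR-126a-3p over miR-145a-5p, each panel spanning the same number of log2 units, with 1 symbol per mouse and bars for the mean ± SD (n = 3). CON mouse 2 is outermost among the CON mice in all 4 panels, and every CON mouse lies above every PND mouse for miR-126a-3p over miR-145a-5p.

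Between the compartments, miR-126a-3p stood at 55.2, 51.9 and 50.9 times miR-145a-5p in PND mice 1 to 3 and at 59.2, 71.1 and 59.7 times in CON mice 1 to 3. Every CON mouse lay above every PND mouse. The means were 52.7 ± 2.25 and 63.4 ± 6.70 (SD, n = 3 each), a log2 difference of -0.26 (exact permutation p = 0.1, the smallest possible, and 0.45 after Benjamini-Hochberg adjustment over the 9 sums and ratios compared). Of the ratios of miR-126a-3p to each of the other 360 entries averaging 10 CPM or more, 2.5% separated the groups in this way. The ratio of miR-126a-3p to miR-143-3p was 1.52, 1.54 and 1.39 in PND and 1.85, 1.71 and 1.48 in CON, and the groups overlapped through CON mouse 3 (log2 difference -0.17, exact permutation p = 0.3). Without CON mouse 1 the log2 difference was -0.31 for miR-126a-3p over miR-145a-5p and -0.10 for miR-126a-3p over miR-143-3p. Within the cluster, miR-143-3p stood at 36.2, 33.8 and 36.5 times miR-145a-5p in PND and at 32.0, 41.6 and 40.3 times in CON, with a log2 difference of -0.09 (exact permutation p = 0.5). The last difference was -0.21 without CON mouse 1, where the groups did not overlap (exact permutation p = 0.1, again the smallest possible). It was -0.02 without CON mouse 2 (exact permutation p = 1.0) and -0.04 without CON mouse 3 (exact permutation p = 0.9).

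Across the 6 mice, miR-126a-3p, miR-143-3p and miR-145a-5p deviated in the same direction. Each of them was below its mean in CON mice 1 and 2 and above it in CON mouse 3 and all 3 PND mice. Of the 10 pairs of members, 1 passed the exact permutation test after Benjamini-Hochberg adjustment over the 10. This was the pair of miR-126a-5p and miR-145a-5p, one endothelial and one mural, with Pearson's r = 0.94 (exact p = 0.00278, adjusted p = 0.0278) and Spearman's rho = 0.94 (exact p = 0.0167, adjusted p = 0.167). Without CON mouse 2 and PND mouse 3, which lie farthest from the median of miR-126a-5p, r was 0.80. With DESeq2 size factors r was 0.79 (exact p = 0.0514, adjusted p = 0.176), and the pair no longer passed. Centred on the group means r was 0.90 (exact p = 0.0278, the smallest that 36 permutations give), and leaving out each mouse in turn gave r from 0.82 to 0.97. In neither form can a lone pair pass after adjustment over 10 pairs, so only r is compared there.

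The major arms of the 2 compartments, miR-126a-3p and miR-143-3p, had r = 0.94 (exact p = 0.0167, adjusted p = 0.0833) and rho = 0.77 (exact p = 0.103, adjusted p = 0.206). Without CON mice 1 and 2, r was 0.69. miR-126a-3p and miR-145a-5p had r = 0.86 (exact p = 0.0264, adjusted p = 0.088) and rho = 0.60 (exact p = 0.242), and r was -0.01 without these mice. Leaving out CON mouse 1 alone gave r = 0.87, and CON mouse 2 alone 0.74. Dropping the outermost mice narrows the range, so a lower r there does not show that a relation rested on them. The cluster partners miR-143-3p and miR-145a-5p had r = 0.83 (exact p = 0.0417, adjusted p = 0.104) and rho = 0.77 (exact p = 0.103), with r = 0.31 without CON mice 1 and 2. For the arms of one hairpin, miR-126a-3p and miR-126a-5p had r = 0.72 (exact p = 0.0958) and rho = 0.77 (exact p = 0.103), with r = 0.05 without CON mice 1 and 2, and miR-145a-5p and miR-145a-3p had r = 0.19 (exact p = 0.694) and rho = 0.09 (exact p = 0.919).

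These values share the library totals, in which miR-128-3p weighed most. Over the 6 libraries the r with miR-128-3p was -0.99 for miR-126a-5p and -0.94 for miR-145a-5p. It was -0.75 for miR-126a-3p, -0.71 for miR-143-3p and -0.02 for miR-145a-3p. In CON mouse 2, where miR-128-3p took 29.2% of the reads, miR-126a-5p was 0.65 and miR-145a-5p 0.44 log2 units below its mean. PND mouse 3, where it took 17.6%, had the highest miR-126a-5p and miR-145a-5p, 0.50 and 0.24 log2 units above the mean. Once miR-128-3p was left out of the total, CON mouse 2 remained the lowest in both (359.9 and 233.3 CPM). PND mouse 3 then remained the highest in miR-126a-5p (686.2 CPM). In miR-145a-5p PND mice 2 and 3 were nearly equal (320.5 and 320.4 CPM). With DESeq2 size factors the r of miR-126a-3p was -0.41 with miR-126a-5p, 0.72 with miR-143-3p, 0.11 with miR-145a-5p and 0.91 with miR-145a-3p, the last being the highest of the 10 pairs under that scaling (exact p = 0.0222, adjusted p = 0.176). How much of the co-variation comes from the scaling was not tested.

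**Figure D4:**
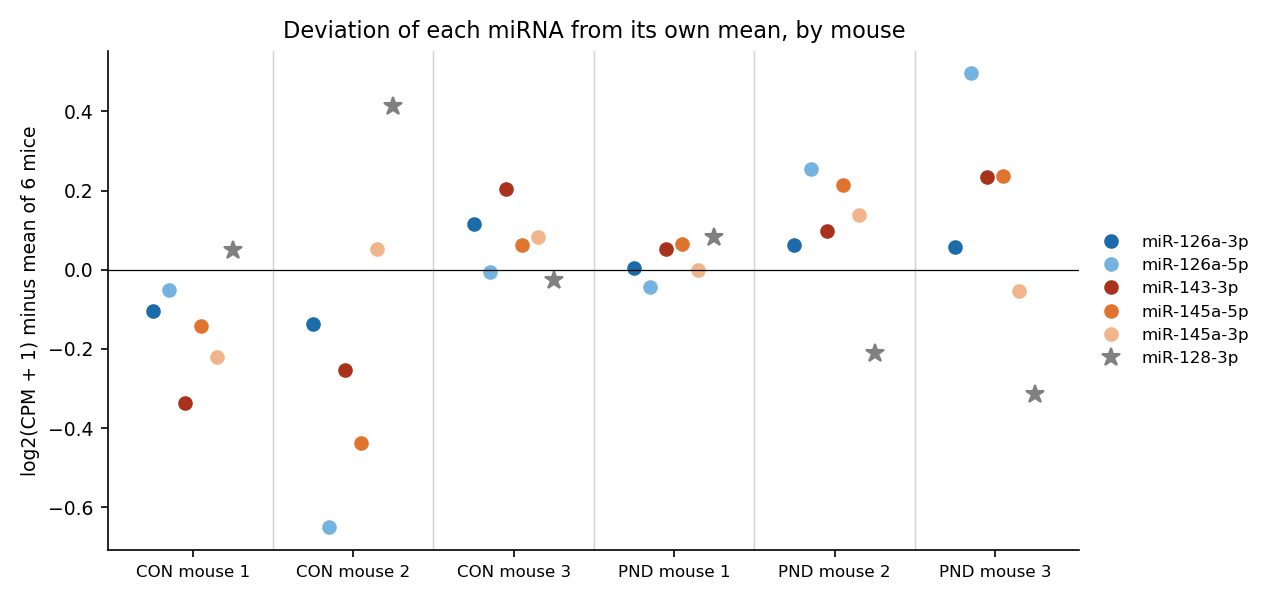
Deviation of log2(CPM + 1) from the mean of the 6 mice for each endothelial and mural miRNA and for miR-128-3p, by mouse, with 1 point per miRNA. CON mouse 2 has the highest miR-128-3p and the lowest miR-126a-5p and miR-145a-5p, and PND mouse 3 the reverse, whereas miR-145a-3p does not follow.

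As a description of likeness, the r of log2(CPM + 1) over the 6 libraries was taken against 355 named miRNAs that averaged 10 CPM or more. The patterns nearest to miR-126a-3p were those of miR-383-5p (r = 0.97), miR-532-5p (0.96), miR-24-1-5p (0.94), miR-148a-3p (0.92) and miR-1843a-5p (0.92). Placed among them, miR-143-3p would be the 3rd, miR-145a-5p the 18th, miR-126a-5p the 68th and miR-145a-3p the 164th. For miR-143-3p the nearest were miR-383-5p (r = 0.95), miR-1843a-5p (0.92), miR-30d-3p (0.92), miR-148a-5p (0.91) and miR-412-5p (0.90). There miR-126a-3p would be the 2nd, miR-145a-5p the 15th, miR-126a-5p the 64th and miR-145a-3p the 133rd. The arms of miR-148a are shown because one stood near each of the major vascular miRNAs, with the seed in capitals (RefSeq, GRCm38.p6, chromosome 6, minus strand, 51269829 to 51269850 for the 3p arm and 51269867 to 51269888 for the 5p arm).
miR-148a-3p: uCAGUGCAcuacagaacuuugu
miR-148a-5p: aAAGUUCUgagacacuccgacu
Neither shares its seed with miR-126a-3p.

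Other miRNAs of vessel-associated and blood cells were compared as lists, in each of which 0 members had an adjusted p under 0.05 in limma. The lists also hold miRNAs averaging under 10 CPM. Among 12 other miRNAs associated with endothelial cells, such as miR-24-3p and miR-221-3p, 10 had a log2 fold change above 0. Their median was 0.10, above the 0.05 of all 1189 entries and below the 0.14 of the 361. Their sum was 9960, 10333 and 10463 CPM in PND mice 1 to 3 and 10173, 9660 and 9609 CPM in CON mice 1 to 3. In 1 of the 12, miR-221-3p, every PND mouse lay above every CON mouse, near the 8.59% of the 361 entries, with 3984, 4151 and 4427 CPM in PND and 3916, 3702 and 3860 CPM in CON. The 10 muscle and fibroblast miRNAs, which include miR-1a-3p and miR-133a-3p, had 9 above 0. Their median was 0.25, above those of all entries and of the 361. They summed to 621 to 705 CPM in PND and 506 to 698 CPM in CON, with the lowest value in CON mouse 1. In 3 of the 10 (miR-133a-3p, miR-199b-3p and miR-214-5p) every PND mouse lay above every CON mouse, beside 7.91% of all entries and 8.59% of the 361. Of these, miR-214-5p had only 5 to 15 reads per library (0.327 to 0.852 CPM). For miR-199a-3p, the near namesake of miR-199b-3p, the groups overlapped. How reads matching both were assigned is not given, so these 2 could share reads. The separation in miR-199b-3p is therefore not read by itself. CON mouse 1 was also the lowest in miR-143-3p and in miR-145a-3p.

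The 10 blood cell miRNAs had 8 above 0 and a median of 0.37, beside 0.05 for all 1189 entries and 0.14 for the 361. They summed to 378 to 403 CPM in PND and 322 to 384 CPM in CON. In 2 of the 10 (miR-486a-3p and miR-142a-5p, both under 3 CPM) every PND mouse lay above every CON mouse, beside 7.91% of all entries. miR-451a, which marks red blood cells, had 40.9 CPM in PND mouse 1 and 0.621 to 3.08 CPM in the other 5. PND mouse 1 was not outermost in any of the 5 vascular miRNAs. Whether residual blood or tissue beside the cortex had a part in the vascular values was not tested.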

How the data were processed

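Small RNA libraries of the prefrontal cortex of 3 PND and 3 CON mice were analysed, and groups and mouse numbers came from the sample labels. The authors deposited 1 CPM value per miRNA and mouse, reads per 1000000 library reads. Per the paper's methods, reads were filtered with fastx, aligned with Bowtie and assigned to miRBase miRNAs, and the submitters' processing notes name Bowtie 0.12.2 and the builds mm8 and mm9, without saying which served these libraries. The labels name a VAHTS total RNA kit and the methods a NEBNext small RNA kit. How reads matching more than 1 miRNA were assigned is not given in the sources used here, so near-identical miRNAs could share reads. Positions are from GRCm38 and not from the files, which hold names only.

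In every library 100% of the CPM values came out as whole reads (tolerance 0.02 reads), which gave the reads per library (14849461 to 19471226) and a floor of 3 reads of 0.154 to 0.202 CPM. Intervals and floors cover counting error only. No library was a copy of another (chi-square over its degrees of freedom 120.5 to 650.8 within groups).

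The main test was limma 3.58.1 (R 4.3.3, eBayes with trend) on log2(CPM + 1) of all 1189 entries without covariates, with Benjamini-Hochberg adjustment over all entries. Fold changes are on that scale. Sums, ratios and correlations were tested by exact permutation, two-sided, with scipy 1.17.1. Alternatives left out each mouse in turn, took the mouse number as a block, dropped the trend, lowered the pseudocount to 0.1, or kept only entries averaging 10 CPM or with 10 reads in 3 libraries. Others scaled by DESeq2 size factors, by TMM factors or by the total without miR-128-3p. Limma-voom, edgeR 4.0.16 (quasi-likelihood, robust) and DESeq2 1.42.0 were run on the recovered reads. On the recovered reads, edgeR called 5 of the 1189 entries at an adjusted p under 0.05. The tests were checked on simulated data.

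The members, the lists and the rule for named miRNAs (the members, the listed miRNAs a result turns on, and the 5 nearest patterns of miR-126a-3p and miR-143-3p) were chosen with earlier results of these data known. The ratio of miR-126a-3p to all other entries, miR-148a and the arm pairs of other hairpins were chosen after the values were seen.

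The remaining lists gave 0 calls at an adjusted p under 0.05. Of 4 neuronal miRNAs 3 had a log2 fold change above 0, of 2 oligodendrocyte miRNAs 2, of 2 choroid plexus miRNAs 1, and of 8 epithelial and olfactory miRNAs 0, beside 65.3% of all entries. The epithelial and olfactory sum was 1646 CPM in CON mouse 1 and 67.0 to 198 CPM in every other mouse. Of 4 names from the members' loci or nearly identical to the members' names, only 1 (miR-143-5p) was among the entries measured.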

Additional observations from a re-analysis of the deposited data

How the results depend on the processing

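No member had an adjusted p under 0.05 under any of 17 alternatives. The lowest adjusted p over them was 0.665 for miR-126a-3p, 0.57 for miR-126a-5p, 0.518 for miR-143-3p, 0.57 for miR-145a-5p and 0.778 for miR-145a-3p. miR-126a-5p, miR-143-3p and miR-145a-5p kept a log2 fold change above 0 in all 17. That of miR-126a-3p was -0.0391 with TMM factors, -0.0688 with DESeq2 size factors, -0.0021 without miR-128-3p in the total, -0.0439 with edgeR, -0.0386 with limma-voom and -0.0748 with DESeq2. That of miR-145a-3p was -0.0639, -0.093, -0.0277, -0.0792, -0.0614 and -0.11 in the same order, and between -0.0397 (without CON mouse 1) and 0.11 when each mouse was left out. The endothelial sum differed by -0.0274 with TMM factors and -0.057 with DESeq2 size factors. The causes were not tested.

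The count of member pairs past the adjusted threshold was 1 with all mice and 0 with DESeq2 size factors. It was also 0 when centred on the group means and 0 to 0 when each mouse was left out, but there a lone pair can reach an adjusted p of at best 0.278 and 0.0833, so these counts say nothing about stability. With DESeq2 size factors r was -0.41 for miR-126a-3p and miR-126a-5p and -0.0393 for miR-145a-5p and miR-145a-3p. When each mouse was left out, r ran from -0.0844 to 0.69 for miR-145a-5p and miR-145a-3p (-0.04 without PND mouse 2), from -0.29 to 0.20 for miR-126a-5p and miR-145a-3p (0.10 without PND mouse 3), and from -0.17 to 0.74 for miR-143-3p and miR-145a-3p.

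Same-numbered mice deviated together with r = -0.13 to 0.51, so the numbers were not taken to pair the mice. With the replicate number as a block in limma, 0 members had an adjusted p under 0.05 (miR-126a-5p, miR-143-3p and miR-145a-5p each 0.746), and over all entries 0 had one, against 5 without the block. The exact sign-flip p of the sums and ratios was 0.25 to 0.75 in the pairing, where 0.25 is the smallest possible. Entries with an adjusted p under 0.05 numbered 0 to 5 over the alternatives.

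For each member and for miR-143-5p the counting error was below the coefficient of variation over the 6 mice.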
